A study of Arabidopsis thaliana with 12 samples.

Results

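A set of 10 of the 33559 Arabidopsis thaliana genes in the expression table encode the transporters, proton pumps and regulators described here: SOS1 (AT2G01980), SOS2 (AT5G35410), SOS3 (AT5G24270), HKT1 (AT4G10310), NHX1 (AT5G27150), NHX2 (AT3G05030), CAX1 (AT2G38170), AHA1 (AT2G18960), AHA2 (AT4G30190) and AVP1 (AT1G15690). They were taken by gene identifier from a list of transport genes. The study asked how loss of SmEb, a core Sm protein of the spliceosome, alters the response of seedlings to salt. RNA was sequenced from whole seedlings aged 12 days, all in the Col-0 background and all grown on MS medium. The groups were smeb-1 with salt, smeb-1 control, smeb-2 with salt, smeb-2 control, Col-0 (wild type) with salt and Col-0 control, with 2 libraries each. Salt was 200 mM NaCl for 6 h and controls were untreated. The description field of the salt samples carries the letters Cd, while their titles and treatment field say salt and the protocol says NaCl; they are taken as salt here. A field of the labels gives the controls 6 h without salt and another allows 0 h, so the hour of harvest cannot be told apart from salt. The kind of lesion in either smeb allele is not stated in the labels. The labels do not say whether the 2 libraries of each group were from different batches of plants; if they were not, the p-values cover technical spread alone.

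Plants survive salt largely by keeping sodium low in the cytosol. SOS3, a calcium sensor, and SOS2, the kinase it activates, switch on SOS1, the sodium/proton antiporter that exports sodium across the plasma membrane. HKT1 retrieves sodium from the xylem sap and so limits the amount that reaches the shoot. NHX1 and NHX2 exchange sodium or potassium for protons at the vacuole, and CAX1 loads calcium into the vacuole in the same way. All of these exchangers run on proton gradients: AHA1 and AHA2 are plasma membrane proton ATPases, and AVP1 is the proton-pumping pyrophosphatase of the vacuole.

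Values are FPKM as deposited, a fragment count divided by the length of the transcript and the size of the library, so levels of different genes can be set beside each other per length. Differences are on the log2(FPKM + 1) scale with their standard error, which understates changes of low genes. They come from limma fitted on 20251 genes that reached 1 FPKM in at least 2 of the 12 libraries, with Benjamini-Hochberg adjusted p-values, and calls were made below an adjusted p of 0.05. The 10 genes all passed that filter, HKT1 only through its control libraries. Library totals are not given; the size of the smallest FPKM steps gave relative depths between 0.822 for a smeb-1 salt library and 1.73 for a smeb-2 control library. The log2 values of libraries of a group correlated with r between 0.984 (Col-0 salt) and 0.994, and the median gene differed by 0.167 on the log2 scale between the Col-0 salt libraries, against at most 0.0998 in the other groups. SmEb itself was between 22.9 and 27.6 FPKM in smeb-1, between 1.92 and 6.24 FPKM in smeb-2 and between 55.1 and 76.1 FPKM in Col-0. All 11 root and 8 shoot markers were above 0 in every library, as whole seedlings should give, except IRT1, a root iron transporter, which was listed at 0 in the suffix 1 salt library of smeb-2. In whole seedlings, fewer cells of a type and less RNA per cell cannot be told apart. Libraries of a group are told apart here by the suffix 0 or 1 of their column, in that order, since the suffix could not be tied to a replicate number.

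Salt raised 7 of the 10 genes in Col-0 and lowered 1, HKT1, which passed the filter through its controls alone. The genes of the vacuolar membrane had the largest rises there: NHX1 rose 2.98-fold, CAX1 2.02-fold, AVP1 1.92-fold and NHX2 1.79-fold in mean FPKM. In each smeb allele 5 genes rose and 2 fell. CAX1 and SOS1 were called in neither allele, and AHA2 fell in both alleles and was not called in Col-0. These counts stand against a large background: salt moved 61.8% of all genes tested in Col-0 (34.1% up and 27.7% down), 57.8% in smeb-1 (31.0% up and 26.8% down) and 59.7% in smeb-2 (32.0% up and 27.7% down). The median difference over the 10 genes was 0.30 in smeb-1, 0.35 in smeb-2 and 0.59 in Col-0, where the median over all genes tested was 0.026, 0.026 and 0.043 in the same order.

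**Figure D1:**
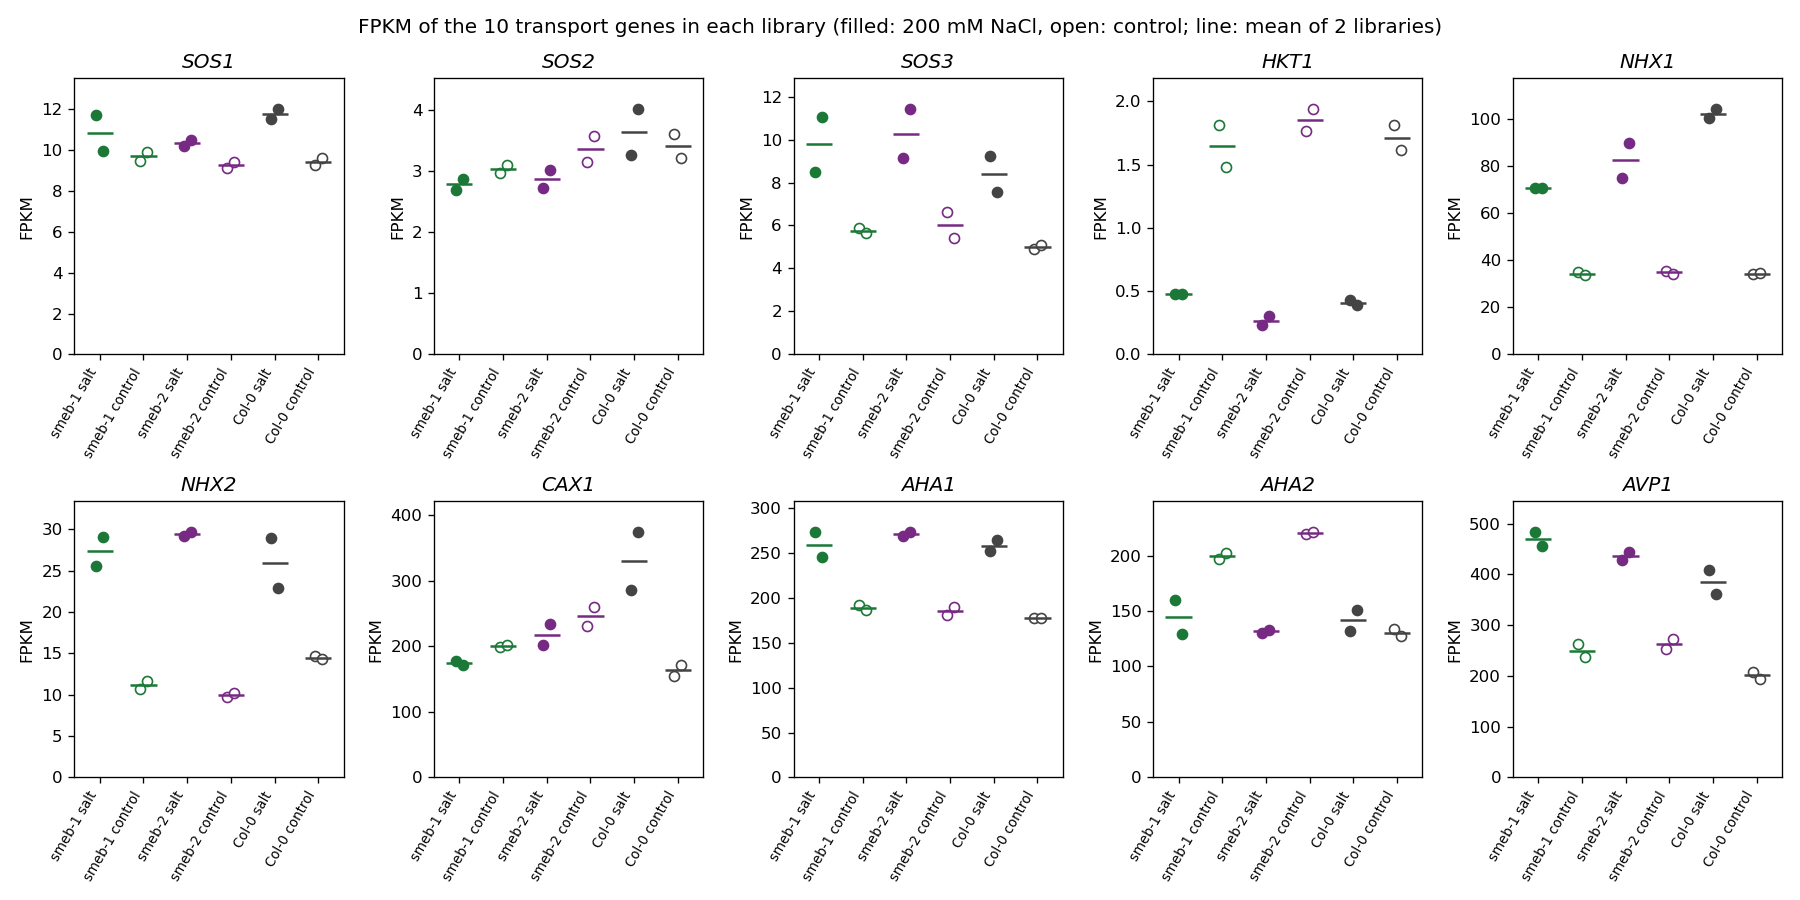
FPKM of the 10 genes in each of the 12 libraries, 1 panel per gene, on linear axes that start at 0. Points are libraries and lines are group means. HKT1 lies below 0.5 FPKM in all 6 salt libraries and above 1.4 FPKM in all 6 controls, and CAX1 is highest in the Col-0 salt libraries.

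The SOS genes were low to moderate in level. SOS1 (chr2:457002-463408, plus strand, 23 exons, TAIR10.1) had 11.7 and 9.93 FPKM in salt-treated smeb-1, against 9.47 and 9.89 FPKM in its controls. It had 10.2 and 10.5 FPKM in salt-treated smeb-2, against 9.10 and 9.41 FPKM in its controls. In Col-0 it had 11.5 and 12.0 FPKM with salt, against 9.24 and 9.59 FPKM without. The salt and control libraries did not overlap within any genotype, but the gaps were small. Those of SOS2, which was not called, did not overlap in either smeb allele. For salt, the share of all genes without overlap was not counted, for SOS1 or for the genes below. The salt difference was 0.29 ± 0.0823 in Col-0 (adjusted p = 0.0114), 0.14 (adjusted p = 0.17) in smeb-1 and 0.15 (adjusted p = 0.15) in smeb-2. The call in Col-0 was lost without the suffix 0 control library (adjusted p = 0.0632) and in a fit of the Col-0 libraries alone (adjusted p = 0.0539), while smeb-1 gained a call without its suffix 1 salt library (0.25, adjusted p = 0.041).

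SOS2 (chr5:13634399-13638375, plus strand) was the lowest of the SOS genes, between 2.69 and 4.01 FPKM over all libraries. It was not called for salt in any genotype: the differences were -0.094 in smeb-1, -0.17 in smeb-2 and 0.068 in Col-0, with adjusted p of 0.49, 0.21 and 0.615, and the sign in Col-0 turned to -0.049 without the suffix 1 salt library. SOS3 (chr5:8238428-8243443, minus strand) rose in every genotype. With salt it had 8.51 and 11.1 FPKM in smeb-1, 9.14 and 11.4 FPKM in smeb-2 and 9.24 and 7.54 FPKM in Col-0, and its 6 controls lay between 4.88 and 6.64 FPKM. No salt library overlapped a control. The differences were 0.67 in smeb-1 (adjusted p = 0.00333), 0.68 in smeb-2 (adjusted p = 0.00286) and 0.65 ± 0.148 in Col-0 (adjusted p = 0.00359).

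HKT1 (chr4:6391854-6395922, plus strand, 3 exons) was the least abundant of the 10 and the only one of them to fall with salt in all 3 genotypes. It had 0.474 and 0.475 FPKM in salt-treated smeb-1, against 1.81 and 1.48 FPKM in its controls. In salt-treated smeb-2 it had 0.229 and 0.303 FPKM, against 1.77 and 1.94 FPKM in the controls. Col-0 had 0.429 and 0.388 FPKM with salt, against 1.81 and 1.62 FPKM without. Every salt library was under every control. The mean with salt was 0.288 times the control mean in smeb-1, 0.144 times in smeb-2 and 0.238 times in Col-0. HKT1 reached 1 FPKM in its controls alone, so the filter that let it be tested favoured a fall with salt. On the log2(FPKM + 1) scale HKT1 fell by 0.84 in smeb-1 (adjusted p = 0.000232), by 1.17 in smeb-2 (adjusted p = 2.2e-05) and by 0.95 in Col-0 (adjusted p = 8.64e-05). At these levels the pseudocount sets the size: with 0.1 in place of 1 the differences were -1.60, -2.42 and -1.83. HKT1 is best known from the root stele. The summed FPKM of 11 root markers, most of it from PYK10, was lower with salt too: it was 671 to 820 with salt and 1247 to 1288 in controls of smeb-1, 654 to 691 and 1322 to 1407 in smeb-2, and 798 to 846 and 1270 to 1297 in Col-0. Without the most abundant, PYK10, the root sum was 75.9 to 82.0 and 92.8 to 93.1 FPKM in smeb-1, 77.3 to 77.8 and 105 to 124 FPKM in smeb-2, and 80.0 to 81.5 and 89.8 to 97.8 FPKM in Col-0. Of the 11, the salt test called 2 higher and 6 lower in smeb-1, 2 higher and 8 lower in smeb-2, and 1 higher and 5 lower in Col-0. Their part in the fall of HKT1 was not tested.

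The promoters of SOS1 and HKT1 are shown because these genes, which salt moved in opposite directions in Col-0, both hold a CACGTG palindrome, the core of the G-box that abscisic acid-responsive factors are known to bind. The windows are the 250 bases before the annotated gene start in TAIR10.1, read 5′ to 3′ on the strand of the gene. Capitals mark matches, on either strand, to ACGTG (the core of the abscisic acid-responsive element) and to CCGAC (the core of the dehydration-responsive element). AVP1 is the other gene of the 10 with a match to either, and NHX1, with the largest rise in Col-0, has none.
SOS1: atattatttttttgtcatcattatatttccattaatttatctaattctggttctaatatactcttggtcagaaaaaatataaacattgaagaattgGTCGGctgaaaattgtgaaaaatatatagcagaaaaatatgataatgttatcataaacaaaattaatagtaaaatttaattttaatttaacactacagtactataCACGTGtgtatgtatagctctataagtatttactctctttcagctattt
HKT1: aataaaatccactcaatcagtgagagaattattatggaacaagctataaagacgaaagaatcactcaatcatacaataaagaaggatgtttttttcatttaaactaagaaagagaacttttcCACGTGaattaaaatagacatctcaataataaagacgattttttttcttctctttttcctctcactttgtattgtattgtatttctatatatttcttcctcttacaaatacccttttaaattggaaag
AVP1: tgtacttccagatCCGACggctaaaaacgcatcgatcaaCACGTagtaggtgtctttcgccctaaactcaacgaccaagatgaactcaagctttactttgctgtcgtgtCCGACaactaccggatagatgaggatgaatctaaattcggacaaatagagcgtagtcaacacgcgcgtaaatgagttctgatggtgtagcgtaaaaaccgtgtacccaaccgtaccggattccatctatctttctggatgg
NHX1: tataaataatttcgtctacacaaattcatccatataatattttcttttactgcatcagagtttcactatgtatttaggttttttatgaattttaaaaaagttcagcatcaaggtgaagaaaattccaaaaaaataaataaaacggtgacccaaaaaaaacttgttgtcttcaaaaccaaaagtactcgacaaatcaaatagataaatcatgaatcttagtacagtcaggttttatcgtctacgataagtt
The SOS1 window is chr2:456752-457001 and the HKT1 window chr4:6391604-6391853. Those of AVP1 and NHX1 are chr1:5398676-5398925 and chr5:9553050-9553299. All 4 are on the plus strand. In SOS1 the palindrome gives an ACGTG on either strand, 44 and 45 bases before the start, with a CCGAC on the minus strand 150 bases before it. In HKT1 it does so 123 and 124 bases before the start. AVP1 has an ACGTG on the minus strand at 207 and CCGAC at 137 and 233 bases before the start. A further motif, TTGAC (the W-box core), was found in the windows of SOS2, SOS3 and AVP1, 1 match each. Over 27443 windows of the same length, 22.9% held ACGTG, 12.0% CCGAC and 44.9% TTGAC, so matches in 3, 2 and 3 of 10 windows describe these sequences and nothing more.

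NHX1 (chr5:9553300-9557594, plus strand, 14 exons) rose furthest in Col-0. With salt it had 70.8 and 70.5 FPKM in smeb-1, 75.0 and 89.7 FPKM in smeb-2 and 100.1 and 104.1 FPKM in Col-0. The 6 controls were nearly level, between 33.6 and 35.5 FPKM. The salt differences were 1.02 ± 0.0783 in smeb-1 (adjusted p = 3.39e-06), 1.21 in smeb-2 (adjusted p = 9.32e-07) and 1.55 in Col-0 (adjusted p = 2.01e-07), or 2.06-fold, 2.36-fold and 2.98-fold in mean FPKM. NHX2 (chr3:1393142-1397627, minus strand) rose least in Col-0. It had 25.5 and 29.1 FPKM with salt in smeb-1, against 10.7 and 11.7 FPKM in controls. In smeb-2 it had 29.1 and 29.7 FPKM with salt, against 9.67 and 10.2 FPKM. In Col-0 it had 28.9 and 22.9 FPKM with salt, against 14.7 and 14.3 FPKM. Salt and control libraries stood apart in every genotype, by 2.44-fold in smeb-1, 2.96-fold in smeb-2 and 1.79-fold in Col-0. The differences were 1.21 ± 0.106 (adjusted p = 8.29e-06), 1.48 (adjusted p = 1.87e-06) and 0.79 (adjusted p = 0.000122) in the same order. NHX2 overlaps a long non-coding RNA on the other strand by 271 bases; strand use in counting is not given, so their reads cannot be told apart there.

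CAX1 (chr2:15989083-15993326, minus strand) responded in Col-0 and was called in neither smeb allele. It had 178 and 172 FPKM in salt-treated smeb-1, against 199 and 203 FPKM in its controls. With salt it had 202 and 234 FPKM in smeb-2, against 232 and 260 FPKM in the controls, so that these groups overlapped. In Col-0 it had 287 and 375 FPKM with salt, against 155 and 172 FPKM without. Both Col-0 salt libraries exceeded all other 10, although they lay far apart (SD 62.2 FPKM). CAX1 rose by 0.998 ± 0.122 in Col-0 (adjusted p = 6.3e-05), while the salt difference was -0.20 in smeb-1 (95% interval -0.47 to 0.075, adjusted p = 0.19) and -0.18 in smeb-2 (-0.45 to 0.096, adjusted p = 0.236). A fit of the smeb-1 libraries alone called the first of these (-0.20, adjusted p = 0.0195).

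Of the proton pumps, AHA1 and AVP1 rose with salt in all genotypes. AHA1 (chr2:8221514-8227622, plus strand, 16 exons) had 245 to 273 FPKM in smeb salt libraries and 252 to 264 FPKM in Col-0 salt libraries, above all 6 controls, which lay between 177 and 192 FPKM. Its salt differences were 0.45 in smeb-1 (adjusted p = 0.000196), 0.54 in smeb-2 (adjusted p = 5.07e-05) and 0.54 ± 0.0633 in Col-0 (adjusted p = 5.1e-05). AVP1 (chr1:5398926-5402733, plus strand) had 483 and 456 FPKM in salt-treated smeb-1, against 262 and 237 FPKM in its controls. It had 428 and 443 FPKM in salt-treated smeb-2, against 253 and 273 FPKM in its controls. Col-0 had 409 and 362 FPKM with salt, against 208 and 194 FPKM. The groups did not overlap, and the differences were 0.91 (adjusted p = 9.01e-06), 0.73 (adjusted p = 3.59e-05) and 0.93 ± 0.0804 (adjusted p = 6.11e-06) in the same order. AVP1 shares 181 bases with a non-coding RNA on its own strand and 165 bases with the protein-coding AT1G15700 on the other.

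AHA2 (chr4:14770395-14776247, minus strand), known as the main proton ATPase of roots, behaved differently from AHA1. It had 160 and 129 FPKM in salt-treated smeb-1, against 197 and 202 FPKM in the controls. With salt it had 130.0 and 133 FPKM in smeb-2, against 219 and 221 FPKM. Col-0 had 132 and 151 FPKM with salt, against 134 and 127 FPKM. Salt and control libraries overlapped in Col-0 only. Salt lowered AHA2 by a log2 difference of -0.47 ± 0.0954 (adjusted p = 0.00206) in smeb-1 and of -0.74 (adjusted p = 0.000101) in smeb-2. Col-0 had no call (0.11, adjusted p = 0.33). The root marker sums given with HKT1 fell with salt in every genotype, Col-0 included, and their part was not tested. AHA1 and AHA2 are close relatives, and 4 of 3805 exonic stretches of 50 bases of AHA1, and 4 of 3028 of AHA2, occur in the other gene. The remaining 8 genes shared none with any gene. Exact matches alone were counted, so reads from stretches that differ by a few bases may still be exchanged.

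**Figure D2:**
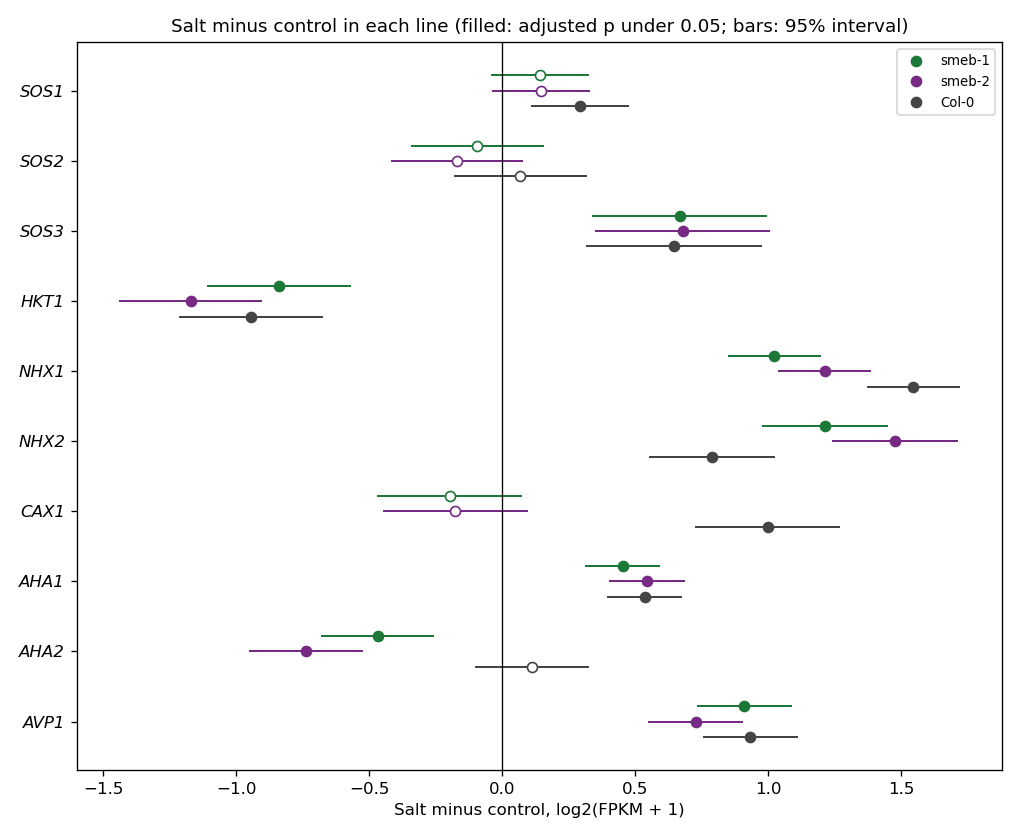
Salt minus control difference on the log2(FPKM + 1) scale for the 10 genes in smeb-1, smeb-2 and Col-0, with 95% intervals from limma. Filled points were called at an adjusted p under 0.05. CAX1 is at 0.998 in Col-0 and slightly below 0 in both smeb alleles, and AHA2 is below 0 in smeb-1 and smeb-2 only.

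Without salt, 4 of the 10 genes differed between smeb, taken as the mean of both alleles, and Col-0, where 24.5% of all genes tested did (11.6% up and 13.0% down). AHA2, CAX1 and AVP1 were higher and NHX2 was lower. Of the higher genes, smeb-2 alone had 3 called, and smeb-1 alone had 2, without CAX1. AHA2 was 1.61 times as high, between 197 and 221 FPKM in smeb controls against 127 and 134 FPKM in Col-0 controls (0.68 ± 0.0826, adjusted p = 0.000395). CAX1 was between 199 and 260 FPKM in smeb against 155 and 172 FPKM in Col-0 (0.44 ± 0.105, adjusted p = 0.0139). AVP1 was between 237 and 273 FPKM in smeb against 194 and 208 FPKM in Col-0 (0.35 ± 0.0696, adjusted p = 0.00575). NHX2 was between 9.67 and 11.7 FPKM in smeb against 14.3 and 14.7 FPKM in Col-0 (-0.42 ± 0.0918, adjusted p = 0.00857). The libraries of these 4 did not overlap between genotypes, but neither did those of SOS3 and AHA1, which were not called. The share of all genes without overlap was not counted. The CAX1 call was lost without the suffix 0 Col-0 control (adjusted p = 0.128) and without the expression filter (adjusted p = 0.061). NHX2 lost its call without either Col-0 control (adjusted p = 0.0707 and 0.0562), and AVP1 without the suffix 1 Col-0 control (adjusted p = 0.074). The sensors and exporters of the SOS pathway were not called in controls: SOS1 differed by 0.0066 with a 95% interval of -0.15 to 0.17, SOS2 by -0.072 (-0.29 to 0.14) and SOS3 by 0.20 (-0.083 to 0.49). Nor were HKT1 (0.017, -0.22 to 0.25), NHX1 (0.0086, -0.14 to 0.16) and AHA1 (0.076, -0.047 to 0.20). The root markers held 1 higher and 0 lower of 11 in this comparison, and the shoot markers 1 higher and 1 lower of 8, each with 0 to 2 higher when 1 library was left out.

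With salt, 3 of the 10 genes were called between smeb and Col-0, beside 27.7% of all genes tested (12.8% up and 14.9% down). CAX1 reached 0.594 times and NHX1 0.749 times the Col-0 mean, and AVP1 1.17 times. In smeb-2 alone AVP1 was not called, and 0 of the 10 were called higher. CAX1 lay between 172 and 234 FPKM in smeb against 287 and 375 FPKM in Col-0 (-0.75 ± 0.105, adjusted p = 0.00131). NHX1 lay between 70.5 and 89.7 FPKM in smeb against 100.1 and 104.1 FPKM in Col-0 (-0.42 ± 0.0678, adjusted p = 0.00246). AVP1 lay between 428 and 483 FPKM in smeb against 362 and 409 FPKM in Col-0 (0.23 ± 0.0696, adjusted p = 0.0337). The AVP1 call was lost without the suffix 1 Col-0 salt library (0.15, adjusted p = 0.219), without the suffix 0 smeb-1 salt library (adjusted p = 0.0795), without the suffix 0 or suffix 1 smeb-2 salt library (adjusted p = 0.0636 and 0.0806), without the filter (adjusted p = 0.0785), after quantile normalization (adjusted p = 0.129) and in a fit of salt libraries alone (adjusted p = 0.103). SOS2, between 2.69 and 3.01 FPKM in smeb and at 3.26 and 4.01 FPKM in Col-0, was not called (-0.27 ± 0.0965, adjusted p = 0.0606); it was called without the suffix 0 Col-0 salt library (-0.39, adjusted p = 0.0226). NHX2 was not called either (0.13, adjusted p = 0.298), but was without that same library (0.30, adjusted p = 0.0199). SOS1, SOS3, HKT1, AHA1 and AHA2 differed by -0.14, 0.23, -0.044, 0.039 and -0.037, with adjusted p between 0.164 and 0.782. Of 8 shoot markers, 3 were called higher in smeb (LHCB3, RBCS1A and AS1) and 0 lower. The sum of the 8 was 12371 to 13970 FPKM in smeb salt libraries against 7767 to 9792 FPKM in Col-0 salt libraries. Without RBCS1A, the most abundant, it was 170 to 230 FPKM against 118 to 123 FPKM, and without LHCB3 as well the other 6 overlapped between genotypes, at 84.9 to 94.8 FPKM in smeb and 84.3 to 85.8 FPKM in Col-0. LHCB3 itself fell with salt, with log2 differences of -4.70 in smeb-1, -5.35 in smeb-2 and -7.04 in Col-0. Of the root markers 3 were higher and 3 lower of 11. Their part in these differences was not tested.

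The test of the difference between salt responses called 4 of the 10 genes, beside 9.96% of all genes tested (6.18% up and 3.78% down). CAX1 had the largest difference: its response was 1.19 ± 0.149 lower in smeb than in Col-0 on the log2 scale (a difference of -1.19, adjusted p = 0.00143), with -1.20 in smeb-1 and -1.17 in smeb-2. AHA2 was next, with a difference in response of -0.72 ± 0.117 (adjusted p = 0.00531), -0.58 in smeb-1 and -0.85 in smeb-2. NHX1 responded less in smeb (-0.43 ± 0.0959, adjusted p = 0.0218), and NHX2 responded more (0.56 ± 0.130, adjusted p = 0.0257). In FPKM, NHX2 was lower in smeb than in Col-0 without salt and overlapped it with salt, whereas NHX1 overlapped without salt and stood apart with salt. For AHA2 the genotypes differed without salt and overlapped with it. The CAX1 and AHA2 calls held under all alternatives run, each library left out in turn among them. NHX1 lost its call without the filter (adjusted p = 0.0609) and without the suffix 0 smeb-1 control (adjusted p = 0.0532), the suffix 0 Col-0 control (adjusted p = 0.0782) or the suffix 1 Col-0 control (adjusted p = 0.0854). NHX2 lost its call without the filter (adjusted p = 0.0825), without the suffix 1 smeb-1 salt (adjusted p = 0.0504) or suffix 0 smeb-1 control library (adjusted p = 0.0597), without either smeb-2 salt library (adjusted p = 0.0517 and 0.0552), without either smeb-2 control (adjusted p = 0.0562 and 0.0514) and without either Col-0 control (adjusted p = 0.0906 and 0.0875). The other 6 differences in response lay between -0.20 and 0.027, with adjusted p from 0.382 to 0.941. The test for a single allele called 3 of the 10 genes in smeb-1 (CAX1, AHA2 and NHX1) and 3 in smeb-2 (CAX1, AHA2 and NHX2), beside 8.52% and 5.86% of all genes tested. All 4 called differences rest on the same Col-0 libraries, and the 6 comparisons share samples with each other.

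**Figure D3:**
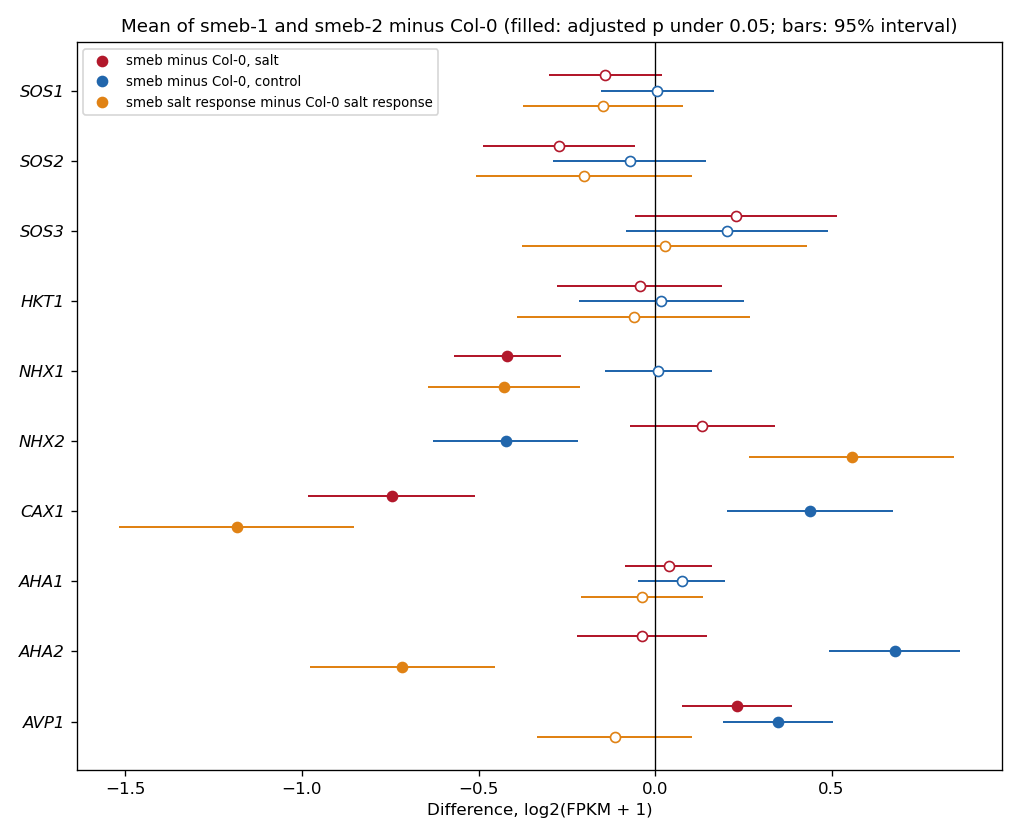
Differences on the log2(FPKM + 1) scale for the 10 genes: smeb minus Col-0 with salt, smeb minus Col-0 without salt, and the smeb salt response minus that of Col-0, with 95% intervals from limma. Filled points were called at an adjusted p under 0.05. CAX1 lies at -0.75 with salt and at 0.44 without, and its response differs by -1.19.

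The alleles were set against each other, since smeb-2 held less SmEb RNA. With 2 libraries per group, a lack of calls does not show that the alleles are alike. Setting smeb-2 against smeb-1, limma called 0 of the 10 genes without salt and 0 with salt, where it called 0.104% and 0.286% of all genes tested. Before adjustment, 1 of the 10 without salt (CAX1) and 2 with salt (CAX1 and NHX1) were under a p of 0.05. CAX1 differed by 0.29 without salt (adjusted p = 0.703) and by 0.31 with salt (adjusted p = 0.317), and NHX1 by 0.21 with salt (adjusted p = 0.286). The 95% intervals for CAX1 were 0.015 to 0.56 without salt and 0.036 to 0.58 with salt.

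Ranked by FPKM, which is per length, AVP1 led in every group. In smeb-1 with salt the order of group means went on with AHA1 (259 FPKM), CAX1 (175 FPKM) and AHA2 (145 FPKM), and in smeb-2 with salt with AHA1 (271 FPKM), CAX1 (218 FPKM) and AHA2 (132 FPKM). Col-0 with salt had CAX1 second, at 331 ± 62.2 FPKM (SD, n = 2), where its lowest library lay above the highest of AHA1 and its highest library within the range of AVP1. In controls of smeb-1 CAX1 (201 FPKM) and AHA2 (199.5 FPKM) overlapped, and AHA1 followed at 189 FPKM. In smeb-2 controls CAX1 overlapped AVP1, and AHA2 (220.1 FPKM) and AHA1 (186 FPKM) followed. In Col-0 controls the order was AVP1 (201 FPKM), AHA1 (178 FPKM), CAX1 (164 FPKM) and AHA2 (131 FPKM), with no overlap between neighbours. Below these 4 pumps and exchangers the order NHX1, NHX2, SOS1, SOS3, SOS2, HKT1 was the same in all 6 groups by means; SOS1 and SOS3 libraries overlapped in both salt-treated smeb alleles.

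The rest of each family gives the setting of these genes. These lists, like the 10 genes, were drawn up with earlier results of these data known. Their counts stand beside the shares of all genes tested given above for each comparison. The first list holds 11 genes, subunits of the vacuolar proton ATPase and the second pyrophosphatase AVP2, which like AVP1 pump protons into endomembrane compartments. Of these, salt raised 8 in smeb-1, 6 in smeb-2 and 9 in Col-0 and lowered 0, with medians of 0.24, 0.19 and 0.30. In Col-0 the smallest p-values were those of VHA-E1 (0.60, adjusted p = 9.23e-05), VHA-A (0.37, adjusted p = 0.000156) and VHA-a3 (0.38, adjusted p = 0.000261). VHA-E1 had 286 and 343 FPKM in Col-0 with salt, against 202 and 210 FPKM without. Between smeb and Col-0, limma called 0 of 11 in controls (2 at an unadjusted p under 0.05) and 0 for the difference in salt response (1 unadjusted). With salt it called 2 as lower, VHA-D (-0.19, adjusted p = 0.0189) and VHA-a2 (-0.21, adjusted p = 0.0402), but 0 in a fit of the salt libraries alone. Both calls were lost without the suffix 1 smeb-1 or the suffix 0 smeb-2 salt library. VHA-D also lost its call without the suffix 1 Col-0 salt library (-0.16). VHA-a2 also lost its call without the suffix 1 smeb-2 or suffix 0 Col-0 salt library (-0.21 and -0.15) and without any 1 control library. It was not called without the filter (adjusted p = 0.0707), with median-of-ratios scaling (adjusted p = 0.0631) or after quantile normalization (adjusted p = 0.123). Leaving out 1 library gave salt counts of 7 to 8 in smeb-1, 4 to 7 in smeb-2, and 7 to 9 in Col-0.

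Of 5 further NHX exchangers, 1 rose and 3 fell with salt in Col-0, where NHX1 and NHX2 rose. NHX5 and NHX6 are the endosomal exchangers: NHX5 fell by 0.90 (adjusted p = 2.48e-06) and NHX6 rose by 0.80 (adjusted p = 2.83e-05). NHX8, the closest relative of SOS1, fell by 0.66 (adjusted p = 0.000514). Salt moved 1 up and 3 down in smeb-1 and 1 up and 4 down in smeb-2, the 4 becoming 2 without either smeb-2 control. In controls 1 was higher in smeb, NHX6 (0.24, adjusted p = 0.0418), a call lost on leaving out each of 9 libraries, and with salt 1 was lower, NHX5 (-0.25, adjusted p = 0.0126; 0.0908 in a fit of salt libraries alone). Without the suffix 0 Col-0 salt library 2 were lower. For the difference in salt response limma called 0 of 5, with 1 at an unadjusted p under 0.05 and a median of -0.041; 1 was called without the suffix 0 Col-0 salt library.

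CAX3, the closest relative of CAX1, rose in all genotypes. It had 48.5 and 37.4 FPKM in salt-treated smeb-1, against 13.1 and 15.4 FPKM in controls. In salt-treated smeb-2 it had 52.9 and 59.6 FPKM, against 16.1 and 13.9 FPKM. With salt Col-0 had 56.9 and 67.5 FPKM, against 13.5 and 15.2 FPKM. Its differences were 1.52 in smeb-1, 1.84 in smeb-2 and 2.04 ± 0.141 in Col-0 (adjusted p = 1.39e-06 in Col-0), and the difference in response, -0.36, had a 95% interval of -0.74 to 0.027. Of the 5 CAX-type genes besides CAX1 that were tested, salt raised 3 in smeb-1, 2 in smeb-2 and 3 in Col-0 and lowered 0; the 2 became 1 without the suffix 1 smeb-2 salt library or either smeb-2 control. NCL rose by 0.51 in Col-0 (adjusted p = 0.000399). CAX4, another vacuolar exchanger, had 4.81 and 3.22 FPKM in salt-treated smeb-1 and 2.25 and 2.46 FPKM in salt-treated smeb-2, against 1.11 and 1.02 FPKM in Col-0 with salt (0.98 ± 0.147, adjusted p = 0.00172). Its controls were between 0.807 and 1.39 FPKM, and its response was larger in smeb by 1.002 (adjusted p = 0.0162), a call lost without the suffix 1 Col-0 control (0.82) and without the filter (adjusted p = 0.0579). For single alleles, limma called this difference in smeb-1 (1.42, adjusted p = 0.00809) and not in smeb-2 (0.59, adjusted p = 0.2). Of the 5, 0 were called in controls (1 at an unadjusted p under 0.05), and with salt 1 was higher and 2 were lower in smeb, the 2 becoming 0 without the suffix 1 Col-0 salt library. CAX1 and CAX4 thus differed between smeb and Col-0 with salt in opposite directions, at levels far apart.

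Of 6 further AHA proton ATPases that passed the filter, salt raised 2 and lowered 1 in Col-0. AHA11 rose by 1.52 (adjusted p = 5.97e-06) and AHA4 by 0.94 (adjusted p = 5.88e-05), and AHA7 fell by 1.26 (adjusted p = 0.000166). AHA7 was also higher in the mean of both smeb alleles in both treatments: 8.89, 8.58, 7.49 and 7.16 FPKM in smeb controls against 4.33 and 3.77 FPKM in Col-0 controls (0.84 ± 0.154, adjusted p = 0.00369), and 4.97, 2.87, 2.24 and 2.07 FPKM with salt against 1.29 and 0.923 FPKM (0.89 ± 0.154, adjusted p = 0.00336). With salt, AHA7 was not called in smeb-2 alone, where 0 of the 6 were called higher than in Col-0. AHA4 responded less in smeb (-0.68, adjusted p = 0.0146), which was lost without the suffix 0 Col-0 control (adjusted p = 0.0615). Salt raised 2 and lowered 3 of the 6 in smeb-1, and raised 2 and lowered 1 in smeb-2. Leaving out 1 library gave 1 to 2 raised in either allele and 1 to 3 lowered in smeb-1, the lowest count coming without the suffix 0 salt library or either control of smeb-1. Between smeb and Col-0, 1 was higher and 1 lower in controls (0 to 3 lower with 1 library left out), and 1 higher and 3 lower with salt (1 lower without the suffix 1 Col-0 salt library).

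The 10 calcium ATPases split, 4 up and 6 down with salt in Col-0, 4 up and 5 down in smeb-1, and 3 up and 5 down in smeb-2. The number raised became 2 in Col-0 without its suffix 1 control, and 2 in smeb-1 without its suffix 0 salt or suffix 0 control library. ACA13 rose most in Col-0, by 3.21 ± 0.128 (adjusted p = 5.05e-08). It had 10.04 and 9.92 FPKM in salt-treated smeb-1 and 16.5 and 13.2 FPKM in salt-treated smeb-2, against 16.3 and 18.8 FPKM in Col-0 with salt, and lay between 0.905 and 1.93 FPKM in controls. Its response was smaller in smeb (-0.76 ± 0.157, adjusted p = 0.016), a call lost without either Col-0 control (adjusted p = 0.0646 and 0.0572) and without the filter (adjusted p = 0.0603). For smeb-2 alone the difference in response of ACA13 was not called. ACA11 and ACA10 fell by 1.27 and 1.15 in Col-0 (adjusted p = 1.12e-06 and 1.98e-05). ACA2, a calcium pump of the endoplasmic reticulum, was lower in smeb controls, at 15.1, 16.4, 14.9 and 14.7 FPKM against 25.1 and 24.9 FPKM in Col-0 controls (-0.68 ± 0.0692, adjusted p = 0.000157). The smeb salt response of ACA2 minus that of Col-0 was 0.49 ± 0.0978 (adjusted p = 0.0135). That call was lost without either Col-0 control, where the difference was 0.487 and 0.495. For the difference in response, limma thus called 1 of the 10 higher and 1 lower. Of the 10, smeb controls had 2 higher and 2 lower than Col-0 (0 to 3 and 1 to 2 with 1 library left out, the fewest without the suffix 1 Col-0 control), and with salt 1 was higher and 3 lower (0 lower without the suffix 1 and 5 without the suffix 0 Col-0 salt library).

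Partners of the SOS pathway, which include sensors, kinases and inhibitors of SOS2, moved both ways: 5 of 12 rose and 5 fell with salt in Col-0, 3 and 6 in smeb-1, and 4 and 6 in smeb-2. ABI2, a phosphatase that binds SOS2, rose by 1.81 in Col-0 (adjusted p = 4.02e-06), and CBL10, the calcium sensor that pairs with SOS2 in shoots, fell by 1.01 (adjusted p = 1.28e-05). GI, a clock protein that holds SOS2 inactive, fell furthest. It had 3.72 and 3.25 FPKM with salt in smeb-1 and 3.53 and 3.22 FPKM in smeb-2, against 42.9 to 46.6 FPKM in smeb controls, and 3.50 and 2.74 FPKM with salt in Col-0 against 45.2 and 41.4 FPKM in its controls (-3.43 in Col-0, adjusted p = 8.9e-09). GI transcripts cycle through the day, and the hour of harvest cannot be told apart from salt here. In smeb controls 1 partner was higher, GRF8 (0.35, adjusted p = 0.000814), and 2 were lower, and with salt 1 was higher and 2 lower, CIPK8 among the lower (-0.25, adjusted p = 0.0113). Without either Col-0 control the 2 became 0. Leaving out 1 library with salt gave 0 to 2 higher and 1 to 4 lower, the 4 without the suffix 0 Col-0 salt library, and a fit of salt libraries alone lost the CIPK8 call (adjusted p = 0.0547). The limma test of the salt response called 0 of 12 (3 at an unadjusted p under 0.05), and 3 without the suffix 0 Col-0 salt library.

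In potassium transport, 5 of 8 genes were higher in smeb controls than in Col-0 controls and 0 were lower. Over all genes tested, 11.6% were higher and 13.0% lower. CHX17 fell just short of a lower call by limma (-0.48, adjusted p = 0.0503). HAK5, the high-affinity potassium uptake transporter of roots, had 8.74 and 9.91 FPKM in smeb-1 controls and 5.60 and 4.05 FPKM in smeb-2 controls, against 1.117 and 1.29 FPKM in Col-0 controls (1.81 ± 0.247, adjusted p = 0.00076). KC1, a silent subunit of the root potassium channel, was at 15.04, 13.4, 15.1 and 14.3 FPKM in smeb controls against 8.83 and 8.67 FPKM in Col-0 controls (0.66 ± 0.0844, adjusted p = 0.000503). The 11 root markers summed to 1247 to 1288 FPKM in smeb-1 controls, which overlapped the 1270 to 1297 FPKM of Col-0 controls, and to 1322 to 1407 FPKM in smeb-2 controls, which lay above them. Without PYK10 the sums were 92.8 to 93.1 FPKM in smeb-1 and 105 to 124 FPKM in smeb-2, against 89.8 to 97.8 FPKM in Col-0. Their part in the higher potassium genes was not tested. Without the suffix 1 Col-0 control the 5 became 2. With salt 1 of 8 was higher in smeb, KC1 (0.57, adjusted p = 0.0016). Salt raised 3 and lowered 1 of the 8 in Col-0 (1 raised without the suffix 1 salt library, 0 lowered without the suffix 0 control), 3 and 2 in smeb-1 (1 raised without its suffix 0 salt library) and 3 and 3 in smeb-2. GORK, the outward channel of guard cells and roots, rose by 0.85 in Col-0 (adjusted p = 4.03e-05). The test of the salt response called 2 of 8 lower in smeb, GORK (-0.46 ± 0.118, adjusted p = 0.0359) and HAK5 (-1.29 ± 0.350, adjusted p = 0.0461), and 0 higher. Each call was lost on leaving out any library other than 2: for GORK all but the suffix 1 salt library of smeb-2 and the suffix 0 salt library of Col-0 (adjusted p from 0.0505 to 0.136), and for HAK5 all but the suffix 0 salt libraries of smeb-1 and Col-0 (adjusted p from 0.0542 to 0.137). Without the filter neither was called (adjusted p = 0.0743 for GORK and 0.157 for HAK5), and with a pseudocount of 0.1 HAK5 was not (adjusted p = 0.138). For single alleles, limma called GORK in smeb-1 (-0.60, adjusted p = 0.0281) and not in smeb-2 (-0.33, adjusted p = 0.205). HAK5 was called in neither smeb-1 (-1.37, adjusted p = 0.0676) nor smeb-2 (-1.21, adjusted p = 0.118).

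**Figure D4:**
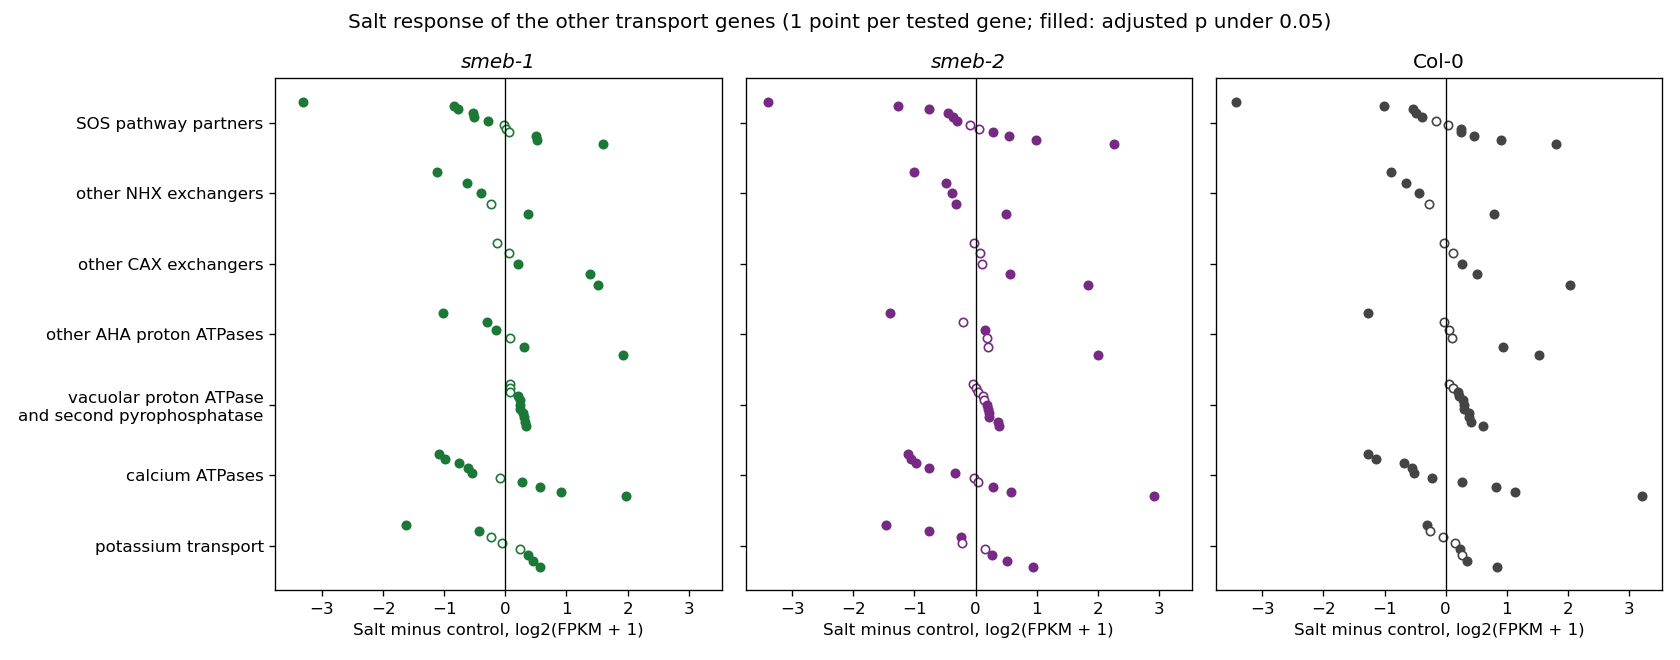
Salt minus control difference on the log2(FPKM + 1) scale for every tested gene of the related lists, in smeb-1, smeb-2 and Col-0. Each point is a gene. The vacuolar proton ATPase subunits lie close together and mostly above 0, while the calcium ATPases spread on both sides, up to 3.21 for ACA13 in Col-0.

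The 10 genes are absent from the authors' deposited tables of splicing events, which list 137 events in 131 genes that depend on SmEb and 208 events in 199 genes that do not. These are few beside the 33559 genes of the expression table, so the absence of 10 genes is no result about their splicing. Of the related genes, 1 is listed: VHA-B2, a subunit of the vacuolar proton ATPase. In the authors' deposited table its cassette event, chr4:18014903-18015001, was skipped in 319 reads and not in 440 in salt-treated smeb, or 42.0% (95% Wilson interval 38.6 to 45.6), against 168 and 624 in the column headed Col-0, or 21.2% (18.5 to 24.2), with a p-value and FDR listed as 0. In TAIR10.1 the segment overlaps an exon but no coding sequence. The heading of the Col-0 column states no treatment, so genotype and salt cannot be told apart in this difference. Replicates are pooled in that table, and the intervals cover counting error only.

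Over the 12 libraries, the genes most like NHX1 in log2(FPKM + 1), out of 14834 with a mean of at least 5 FPKM, were PES1 (r = 0.997), AAC2 (r = 0.996) and CAD5 (r = 0.995). For CAX1 they were GLYI4 (r = 0.953), AT1G56700 (r = 0.951) and RNL (r = 0.923). For SOS1 they were AT1G16270 (r = 0.954), AT3G23325 (r = 0.947) and MBR2 (r = 0.944), and for HKT1, out of 14835, AT1G55360 (r = 0.991), SBH2 (r = 0.990) and WAT1 (r = 0.990). These values are descriptions: the libraries fall into salt and control clusters, and any gene that moves strongly with salt shares that split. CAX1 does not follow that split, since it rose in Col-0 only, and SOS1 moved little with salt. What their most similar genes share with them was not tested.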

How the data were processed

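RNA sequencing of 12 seedling libraries in 6 groups was used. Per the submitters' processing notes, Trimmomatic 0.32, TopHat2 2.0.13 and the TAIR10 build were used. The authors deposited FPKM per gene and library; its tool, annotation, library totals and use of strand are not stated in the labels or headers. A shift in a few abundant genes moves all other FPKM values, and the depth behind a value is unknown apart from relative steps. The authors' deposited splicing tables hold pooled read counts per event with a p-value and FDR. Column names were matched to genotype and treatment, and 0 columns of other series were used.

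From these values, log2(FPKM + 1) was fitted with limma 3.58.1 (trend) in R 4.3.3, with 1 mean per group over all 12 libraries and 6 residual degrees of freedom, on genes with at least 1 FPKM in 2 libraries. smeb is the mean of both alleles. Benjamini-Hochberg adjustment ran over all tested genes of a comparison. The code was tested on simulated data. As alternatives, each library was left out, the groups compared were fitted alone, the suffix was a block, values were quantile normalized or scaled by median of ratios, the filter was dropped, or the pseudocount was 0.1; after seeing the data the same alternatives were also run on the related lists. Suffixes did not pair the libraries. Promoter windows and gene structures were read from RefSeq TAIR10.1, which names 32817 of the 33559 identifiers.

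The 10 genes and the related lists were chosen with earlier results of these data known. Named are all 10 genes and, of each related list, up to 3 called genes with the smallest p for salt in Col-0 and up to 2 in each smeb comparison. For SOS1, HKT1, NHX1 and CAX1 the 3 most correlated genes are named.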

Additional observations from a re-analysis of the deposited data

Results flagged for a closer look

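The salt response differed between smeb and Col-0, by the limma test of the difference itself, in 4 of the 10 genes. On the log2(FPKM + 1) scale, the smeb response minus the Col-0 response was -1.19 for CAX1, -0.72 for AHA2, -0.43 for NHX1 and 0.56 for NHX2. For smeb-1 alone the test called CAX1 (-1.20, adjusted p = 0.00369), AHA2 (-0.58, adjusted p = 0.03) and NHX1 (-0.52, adjusted p = 0.0214), but not NHX2 (0.43, adjusted p = 0.115). For smeb-2 alone it called CAX1 (-1.17, adjusted p = 0.00496), AHA2 (-0.85, adjusted p = 0.00676) and NHX2 (0.69, adjusted p = 0.0278), but not NHX1 (-0.33, adjusted p = 0.118). Both alleles were set against the same Col-0 libraries, and a gene called in only 1 allele is not shown to differ between alleles.

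The single-allele results for CAX1 held in all alternatives run, as did that for AHA2 in smeb-2. AHA2 in smeb-1 lost its call without the filter (adjusted p = 0.1), in a fit of the groups compared alone (adjusted p = 0.0905), and without any library other than the suffix 0 libraries of smeb-1 salt and Col-0 salt (lost adjusted p from 0.0505 to 0.11). NHX1 in smeb-1 lost it without the filter (adjusted p = 0.0613) and without any smeb-1 library or any Col-0 control (adjusted p from 0.0584 to 0.0828). NHX2 in smeb-2 lost it without the filter (adjusted p = 0.0949), in a fit of the groups compared alone (adjusted p = 0.055), and without any smeb-2 library or any Col-0 control (adjusted p from 0.0835 to 0.0922). NHX2 in smeb-1 gained a call without the suffix 0 Col-0 salt library (0.59, adjusted p = 0.00752), and NHX1 in smeb-2 without its suffix 1 salt library (-0.46, adjusted p = 0.0337).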

How the results depend on the processing

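The number of the 10 genes called kept within 1.5 times under every alternative that kept all libraries, except the difference in salt response without the filter (2 genes in place of 4, and for smeb-1 alone 1 in place of 3). Over all genes, that setting gave 1176 calls against 2016, and a fit of the salt libraries alone gave 2091 calls between smeb and Col-0 against 5617; testing more genes or fewer libraries is part of these settings. Leaving out 1 library gave 7 to 8 of the 10 genes for salt in smeb-1, 7 to 7 in smeb-2 and 7 to 8 in Col-0, 2 to 4 for smeb against Col-0 in controls, 2 to 5 with salt and 2 to 4 for the difference in response, and 0 between the alleles. Genes called then ranged from 9560 to 12815 (smeb-1), 9915 to 13080 (smeb-2), 10508 to 12511 (Col-0), 2385 to 6535 (controls), 2982 to 7918 (salt) and 815 to 5006 (response). Signs turned when 1 library was left out for uncalled differences: SOS2 for salt in Col-0 (-0.049 to 0.19); SOS1 (-0.017 to 0.031), HKT1 (-0.035 to 0.069) and NHX1 (-0.0051 to 0.022) in controls; AHA2 (-0.13 to 0.056) and NHX2 (-0.029 to 0.30) with salt; SOS3 (-0.10 to 0.16) and AHA1 (-0.076 to 0.0016) in response. The causes were not tested. With the column suffix as a replicate block, 7, 7, 8, 4, 3 and 4 of the 10 genes were called, as without it, and the block changed the calls of NHX6 in controls (adjusted p = 0.0567) and the response of HAK5 (-1.29, adjusted p = 0.0461 without the block and 0.0615 with it) among related genes; the suffix differences of group pairs correlated with r from -0.13 to 0.11 over 15 pairs, 2 of them over 0.1, so suffixes share only a number. Scaling moved the median of all genes by under 0.1. Further lost calls among named related genes for salt in Col-0 were CAX2 and AKT1 without the suffix 0 control (adjusted p = 0.067 and 0.129) and KC1 without the suffix 1 salt library (adjusted p = 0.0616). In a limma fit of the Col-0 libraries alone, CAX2, KC1 and AKT1 lost these calls too (adjusted p = 0.0697, 0.0613 and 0.0624). CAX2 also lost its call after quantile normalization (adjusted p = 0.0629). Unknown library totals and 2 libraries per group limit the smallest differences that could be seen.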
